A study of Mus musculus with 59 samples.

Results

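The genes described here are 10 mouse genes known as transcripts of the 2-cell stage: Zfp352, Zfp750, Spz1, Tmem92, Lmx1a, Slc34a2, Ubtfl1, Sp110, B020004J07Rik and Gm6763. They were taken by name, with no threshold on their values but with earlier results of these data known, and all 10 of them have a row among the 24421 genes of the expression table. The embryos were clones, made by somatic cell nuclear transfer (SCNT): a somatic nucleus takes the place of the oocyte's own, and the egg is then activated to start development. All groups used here are SCNT embryos labelled as strain BDF1, with poly(A) RNA as the molecule. One group of late 2-cell embryos, collected 33 to 34 h after activation, had been given trichostatin A (TSA), which blocks histone deacetylases. Untreated embryos were collected at the 1-cell stage at 13 to 14 h, the early 2-cell stage at 20 to 21 h and the late 2-cell stage at 33 to 34 h. The labels list 5 RNA libraries for each of these 4 groups, 4 of late 2-cell embryos injected with Dux, and 35 chromatin libraries, and the Dux and chromatin libraries were not analysed here. Oocyte donors were 5 to 7 weeks old. The sources used here give no TSA dose or exposure, and cumulus cells are named as nuclear donors in the labels of the chromatin libraries only.

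In the mouse, the embryo's own genome is switched on in a small wave in the 1-cell embryo and a large one in the 2-cell embryo, while stored oocyte RNA is cleared. A set of genes and retroviral elements is transcribed in a short window at the 2-cell stage, many of them under the homeodomain factor Dux. Cloned embryos are known for incomplete activation of this programme, and inhibitors of histone deacetylases such as TSA are used to improve their development.

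The deposited values are log2(FPKM + 1), where FPKM is the fragment count scaled by transcript length and library total, so levels can be compared between genes. Each group has 1 column, and each value is the authors' value for a group of libraries. The differences therefore come with no replicate check, no error, no n and no p-value, and words such as "higher" describe these columns only. A gene is counted as 2-fold apart when its values differ by at least 1 on the log2(FPKM + 1) scale. That scale understates ratios near or under 1 FPKM, so FPKM ratios are given beside it. The number of genes at 1 FPKM or more was 9419 in 1-cell, 9477 in early 2-cell and 12215 in late 2-cell untreated embryos, and 11912 with TSA. Depth is unknown, and a gene at 0 is only said to be listed at 0. Markers of oocyte and early embryo were at 1 FPKM or more in all 4 columns, 8 of 8 genes. Each column stands for whole embryos, so fewer cells with a transcript and less RNA per cell cannot be told apart.

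The set was named as single-copy 2-cell stage genes, and the annotation and stage values go against that name for some of its genes. Copy number was not tested for the others. Gm6763 lies on chromosome 10 (chr10:104151497-104153936, GRCm38.p6) in a row of 7 protein-coding RefSeq genes, each 2439 to 2481 bp long, whose starts are 8509 or 8510 bp apart. Gm6763 was listed at 0 in all 4 columns. In that row Gm21312 carried a signal, at 0.787 FPKM in 1-cell, 2.00 FPKM in early 2-cell and 6.77 FPKM in late 2-cell untreated embryos, and at 15.3 FPKM with TSA. The other 5 genes of the row were listed at 0, apart from Gm4340 at 0.0330 FPKM in early 2-cell embryos. How the authors' counting assigned reads among these copies is not given in the sources used here, so the value of 0 for Gm6763 is uncertain. B020004J07Rik, which RefSeq names Pramel17, is a gene of the PRAME-like (Pramel) family and has Pramel18 and Pramel19 among its neighbours on chromosome 4. In stage, Zfp750 and Sp110 did not have the profile of the name, because both were highest in the 1-cell column. The highest of the 3 untreated columns was the late 2-cell one for 7 of the 9 genes above 0, against 65.0% of the 13012 genes that reached 1 FPKM in an untreated column.

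The early to late 2-cell interval held the largest differences of the set. Of the 10 genes, 6 were at least 2-fold higher in late than in early 2-cell embryos, against a background of 47.9% of 12794 tested genes, and 1 was at least 2-fold lower, against 10.9%. The median difference over the 10 genes was 2.29 on the log2(FPKM + 1) scale, against 0.92 over all tested genes. The median of the 10 was 1.43 after median-ratio scaling and 1.44 after quantile normalization, and both scalings gave 2 lower genes, Sp110 beside Zfp750. The all-gene shift was 0.16 after median-ratio scaling and 0.05 after quantile normalization, and the share of 2-fold calls that were higher was 81.4% as deposited, 54.4% after median-ratio scaling and 50.9% after quantile normalization. The 6 higher genes stayed at least 2-fold higher, above these shifts, under both scalings.

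Among the DNA-binding proteins, Zfp352, a C2H2 zinc finger gene long used as a marker of the 2-cell embryo, was the most abundant of the set in both late 2-cell columns. It stood at 6.38 FPKM in 1-cell, 26.0 FPKM in early 2-cell and 129 FPKM in late 2-cell untreated embryos, and at 149 FPKM with TSA. By abundance its rank among the 24421 genes moved along the untreated stages through 5379, 2335 and 809. It was the one gene of the set well above 1 FPKM in the 1-cell column that was also highest late, and its late value was 20.2 times its 1-cell value as deposited, 10.7 times after median-ratio scaling and 12.1 times after quantile normalization.

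Ubtfl1 encodes an HMG-box protein related to the nucleolar factor Ubtf and is needed for preimplantation development in the mouse. Its values were 0.113 FPKM in 1-cell, 0.751 FPKM in early 2-cell and 25.8 FPKM in late 2-cell embryos, with 25.8 FPKM also in the TSA column. Nearly all of its listed RNA was therefore in the late 2-cell columns: the early value was 2.91% of the late value, and the late to 1-cell ratio of 227 was the largest of the set, as it was at 120 after median-ratio scaling and 69.4 after quantile normalization. That ratio and those of Slc34a2 at 158 and B020004J07Rik at 121 rest on 1-cell values under 1 FPKM with no error, so their order is not settled. Spz1, a basic helix-loop-helix leucine zipper gene known from the testis, was at 0.857 FPKM in 1-cell, 1.54 FPKM in early 2-cell and 15.0 FPKM in late 2-cell embryos, and at 17.9 FPKM with TSA. Lmx1a, a LIM homeodomain gene known from the roof plate and midbrain dopaminergic neurons, was the lowest of the late-high genes, at 0.920 FPKM in 1-cell, 1.42 FPKM in early 2-cell and 3.73 FPKM in late 2-cell embryos, against 10.1 FPKM with TSA. Its late minus early difference of 0.97, an FPKM ratio of 2.62, was near the all-gene median. It was 1.33 with a pseudocount of 0.1, which passes the 2-fold line and makes 7 genes higher, but 0.44 with a pseudocount of 5, 0.26 after median-ratio scaling and -0.10 after quantile normalization, so the direction for this gene depends on the scaling.

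Of the membrane proteins, Slc34a2 encodes the sodium-dependent phosphate transporter NaPi-IIb, best known from lung and intestine. It was at 0.372 FPKM in 1-cell, 1.40 FPKM in early 2-cell and 58.7 FPKM in late 2-cell embryos, and at 92.5 FPKM with TSA. Its late minus early difference of 4.64, an FPKM ratio of 41.8, was the largest of the set, and 1.27% of tested genes had a larger one. The ratio was 20.8 after median-ratio scaling and 18.7 after quantile normalization. Tmem92, annotated as a transmembrane protein, was at 0.240 FPKM in 1-cell, 1.10 FPKM in early 2-cell and 9.47 FPKM in late 2-cell embryos, and at 14.8 FPKM with TSA. Apart from these, the PRAME-like gene B020004J07Rik was at 0.121 FPKM in 1-cell, 0.372 FPKM in early 2-cell and 14.7 FPKM in late 2-cell embryos. With TSA it was at 19.8 FPKM.

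**Figure D1:**
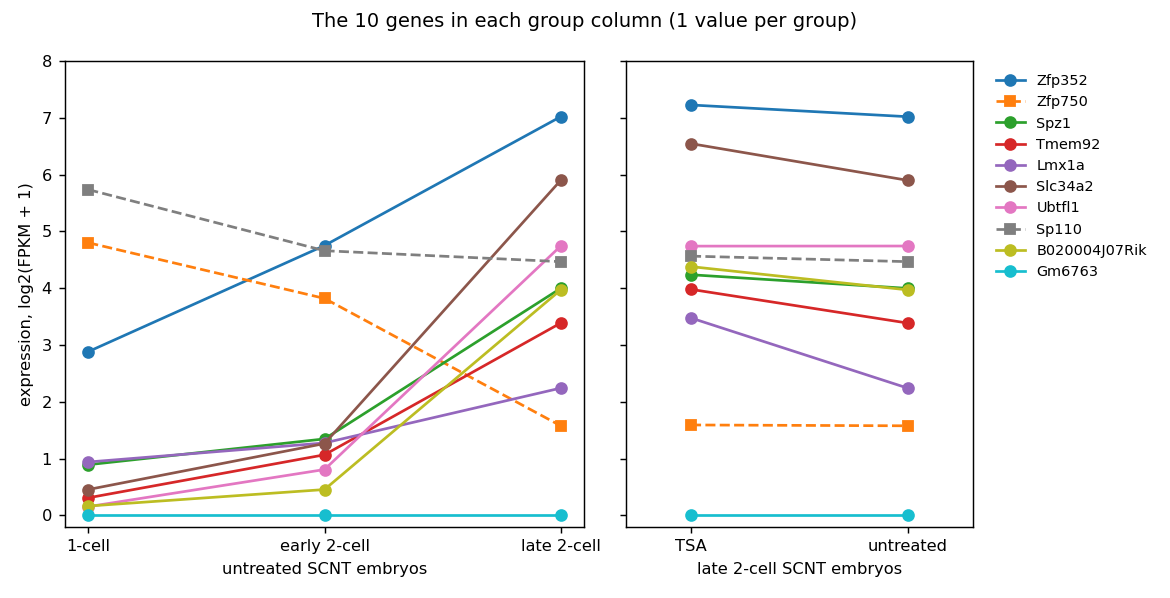
Expression of the 10 genes in log2(FPKM + 1), 1 point per gene and column, over the 3 untreated stages (left) and in TSA-treated and untreated late 2-cell embryos (right). Of the 10 lines, 7 end highest in the late 2-cell column, while the dashed lines of Zfp750 and Sp110 start highest in the 1-cell column and Gm6763 stays at 0.

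The 7 late-high genes differed in how much of their late 2-cell level was already listed at the early 2-cell stage. That share was 38.1% for Lmx1a, 20.1% for Zfp352, 11.6% for Tmem92 and 10.3% for Spz1. It was lower for Ubtfl1 at 2.91%, B020004J07Rik at 2.53% and Slc34a2 at 2.39%. The shares depend on the scaling: they were 20.7% to 76.6% for the first 4 genes and 4.81% to 5.86% for the other 3 after median-ratio scaling, and 27.0% to 110% and 5.35% to 7.54% after quantile normalization. The first 4 lay above the other 3 each time. Apart from Zfp352 at 26.0 FPKM, the early values of the 7 genes lie at 0.372 to 1.54 FPKM. There 1 value per column gives no measure of error, so the order within each group is not settled.

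**Figure D2:**
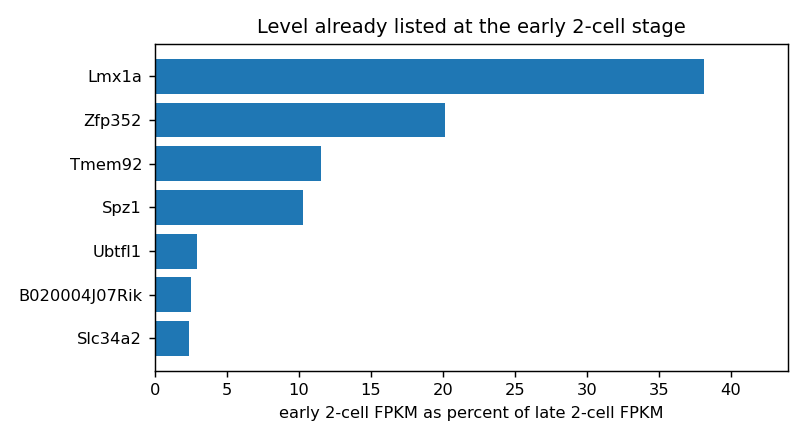
The early 2-cell value as a percentage of the late 2-cell value in untreated embryos, in FPKM, for the 7 genes that were highest at the late 2-cell stage. Shares fall into a range of 10.3% to 38.1% for 4 genes and 2.39% to 2.91% for 3.

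At the first cleavage, from the 1-cell to the early 2-cell column, Zfp352 stood out from the set. It was 1.87 higher on the log2(FPKM + 1) scale in early 2-cell than in 1-cell embryos, an FPKM ratio of 4.07, and 0.583% of tested genes had a larger difference. It was the 1 gene of 10 that was at least 2-fold higher, against a background of 3.72% of 10117 tested genes, and 1 gene, Sp110, was at least 2-fold lower, against 7.12%. The median of the 10 genes was 0.39, against -0.08 over all tested genes, and 7 of the 10 differences were above 0, against 44.1%. Among these 7, Ubtfl1 and B020004J07Rik were under 1 FPKM in both columns. For Slc34a2, Tmem92 and Ubtfl1 the early 2-cell values were 3.77, 4.56 and 6.62 times the 1-cell values in FPKM, but from levels under 1 FPKM at the 1-cell stage. With a pseudocount of 0.1 in place of 1 these 3 genes and B020004J07Rik also passed the 2-fold line, so 5 genes did. In this comparison 7 of the 10 genes reached 1 FPKM in either column, as did 9 of the 10 in each of the other comparisons.

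Zfp750 and Sp110 were highest in the 1-cell column and lowest in the untreated late 2-cell column. Zfp750, a zinc finger regulator of epidermal differentiation, was at 26.9 FPKM in 1-cell, 13.1 FPKM in early 2-cell and 1.99 FPKM in late 2-cell untreated embryos, and at 2.02 FPKM with TSA. In late 2-cell embryos its level was 7.38% of the 1-cell level, 3.91% after median-ratio scaling and 3.78% after quantile normalization, and the late minus early difference was -2.24, with 2.31% of tested genes lower still. Sp110, an interferon-induced gene of nuclear bodies, was at 52.3 FPKM in 1-cell, 24.3 FPKM in early 2-cell and 21.1 FPKM in late 2-cell embryos, and at 22.7 FPKM with TSA. Its early minus 1-cell difference was -1.08 as deposited, and from -0.77 to -1.10 under the other pseudocounts and scalings. Its late minus early difference was -0.19 as deposited, but -1.15 after median-ratio scaling and -1.05 after quantile normalization. Both genes overlap another gene in RefSeq: Zfp750 lies within Tbcd, and Sp110 overlaps Sp140. Tbcd was at 0.309 FPKM in 1-cell, 0.184 FPKM in early 2-cell and 3.98 FPKM in late 2-cell embryos, and Sp140 at 0.202, 0.356 and 9.77 FPKM in the same stages. Both partners were thus highest in the late 2-cell column, where Zfp750 and Sp110 were lowest. Whether the counting used strand is not given in the sources used here, and reads shared within each pair cannot be told apart.

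Late 2-cell embryos treated with TSA were set against untreated late 2-cell embryos to ask how the histone deacetylase inhibitor bears on the activated genes. Lmx1a was the 1 gene of 10 at least 2-fold higher with TSA, against a background of 2.51% of 12756 tested genes, and none was at least 2-fold lower, against 4.08%. The median difference of the 10 genes was 0.22, against -0.08 over all tested genes, and 8 of the 10 were above 0, against 43.3% of all tested genes. Of all 2-fold calls in this comparison, 38.1% were higher with TSA as deposited, 61.2% after median-ratio scaling and 52.7% after quantile normalization.

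Lmx1a was at 10.1 FPKM in TSA-treated and 3.73 FPKM in untreated late 2-cell embryos, a difference of 1.23, with 1.36% of tested genes higher. With a pseudocount of 5 that difference was 0.79 and no gene of the set passed the 2-fold line. Both membrane protein genes followed. Slc34a2 was at 92.5 FPKM with TSA against 58.7 FPKM without, an FPKM ratio of 1.57 and a difference of 0.65, which 7.68% of tested genes exceeded. Tmem92 was at 14.8 FPKM with TSA against 9.47 FPKM without, a ratio of 1.56 and a difference of 0.59, which 9.10% exceeded. These sizes were under the 2-fold line. B020004J07Rik differed by 0.41, at 19.8 FPKM with TSA against 14.7 FPKM without.

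The remaining genes differed by 0.24 or less between the TSA and untreated columns as deposited. Spz1 had 17.9 FPKM with TSA against 15.0 FPKM untreated, and Zfp352 had 149 FPKM with TSA against 129 FPKM untreated, so the most abundant gene of the set differed by 0.21. Sp110 differed by 0.10 and Zfp750 by 0.01. Ubtfl1 was at 25.8 FPKM in both columns, a ratio of 0.999, and its sign is not settled, since the difference was up to 0.14 under the scalings. The summed level of the 10 genes was 354 FPKM with TSA and 279 FPKM without. Most of that gap came from the large values of Slc34a2 and Zfp352.

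**Figure D3:**
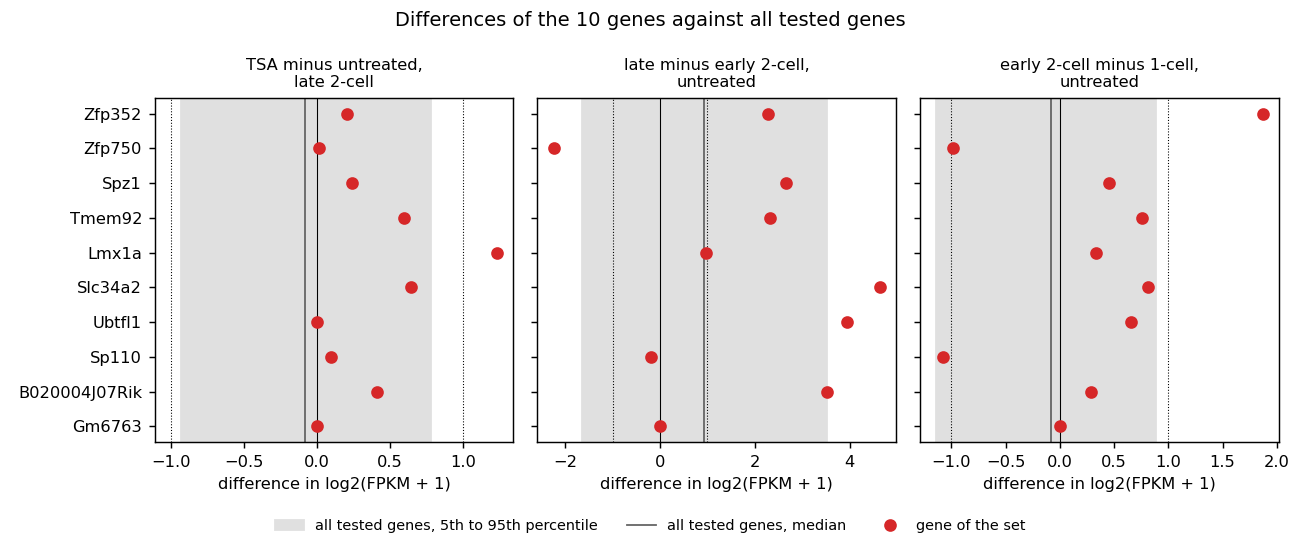
Differences in log2(FPKM + 1) of the 10 genes (red points) in the 3 comparisons, with the 5th to 95th percentile range of all tested genes in grey, their median as a grey line and the 2-fold lines dotted. Outside the grey range lie Lmx1a with TSA, Slc34a2, Ubtfl1 and Zfp750 in late against early 2-cell embryos, and Zfp352 in early 2-cell against 1-cell embryos.

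Marker genes of other cells moved in the same columns. The summed level of 18 cumulus and granulosa markers was 48.2 FPKM in 1-cell, 42.2 FPKM in early 2-cell and 149 FPKM in late 2-cell untreated embryos, and 113 FPKM with TSA. In each late 2-cell column 8 of these 18 were at 1 FPKM or more, and Nr5a2, which embryos also express, and Anxa2 held most of the sum. The 7 blood markers summed to 0.517 FPKM in 1-cell, 0.493 FPKM in early 2-cell and 52.4 FPKM in late 2-cell embryos, and 69.9 FPKM with TSA. Of them 4 were at 1 FPKM or more in each late 2-cell column, with Hba-a1 at 50.0 FPKM with TSA and 32.9 FPKM without, while Ptprc, Hbb-bs and Tyrobp were listed at 0 in both. The part of these markers in the late 2-cell values of the 10 genes was not tested.

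Other transcripts of the 2-cell stage, from multi-copy families such as Zscan4, Usp17l, Tdpoz, Tcstv and Pramel, gave a scale for these differences. Of 31 listed, 30 were in the table. Their median TSA minus untreated difference was 0.43, against -0.08 over all tested genes, and 25 of the 30 were above 0, against 43.3%. In that comparison 3 of the 30 were at least 2-fold higher with TSA, led by Usp17lb and Usp17lc, against 2.51% of tested genes. As many as 2-fold lower were 0 of the 30, against 4.08%, and Zscan4f and Zscan4c had the lowest differences. Between late and early 2-cell embryos 24 of the 30 were at least 2-fold higher, led by Usp17lb and Pramel6, against 47.9% of tested genes. Tcstv1 was the 1 gene at least 2-fold lower, against 10.9%, and the median was 2.01, against 0.92. At the first cleavage 7 of the 30 were at least 2-fold higher in early 2-cell embryos, led by Gm5662 and Gm2016, against 3.72% of tested genes. The median was 0.06, against -0.08. These families hold near-identical copies, so their single-gene values are uncertain.

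Among 22 genes of the Dux family and its known activators and repressors, the median TSA minus untreated difference was 0.04. Of the 22, 12 were above 0, against 43.3% of tested genes. None was 2-fold apart, against 2.51% higher and 4.08% lower. Dux itself was listed at 0 with TSA and at 0.0202 FPKM without, at the late 2-cell stage, and at most at 0.0226 FPKM in the other columns. Between late and early 2-cell embryos 10 of the 22 were at least 2-fold higher and 1 was lower, against 47.9% and 10.9% of tested genes, led by Dppa4, an activator of Dux, and Sumo2, with Kdm1a lowest. Of 22 maternal oocyte transcripts, 10 were at least 2-fold lower in late than in early 2-cell embryos, against 10.9% of tested genes. As much higher were 2, against 47.9%, and the median was -0.68, against 0.92. With TSA 20 of those 22 were below their untreated value and 2 above, where 43.3% of tested genes were above. Their median was -0.27, against -0.08 over all tested genes. The late minus early difference of Zfp750, -2.24, was below the median of the maternal list, and that of Sp110, -0.19, above it.

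Start regions were read from RefSeq promoter windows of build GRCm38.p6, which run from 250 bases before to 50 bases after a gene start. Of the 10 genes, 7 matched, with 8 windows because Sp110 has 2, both inside its annotated span, while Zfp750, Tmem92 and Gm6763 had no entry. Zfp352, Sp110 and B020004J07Rik share a stretch next to the start, found as the blocks of at least 8 bases common to all 3: the letters TTCTGCTGGAG, a gap of 3 or 4 bases, and ATATAAGG. The last 70 bases before the start are shown for these 3 genes and for Gm21312, the copy with a signal in the row of Gm6763, because genes of different families hold the shared stretch. Capitals mark TTCTGCTGGAG and ATATAAGG.
Zfp352, chr4:90218750-90218819, plus strand: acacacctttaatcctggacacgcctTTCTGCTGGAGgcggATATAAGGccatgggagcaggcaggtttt
Sp110, chr1:85603892-85603961, minus strand: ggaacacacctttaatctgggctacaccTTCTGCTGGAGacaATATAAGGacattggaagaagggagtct
B020004J07Rik, chr4:101844023-101844092, minus strand: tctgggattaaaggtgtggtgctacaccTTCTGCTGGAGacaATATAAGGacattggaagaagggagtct
Gm21312, chr10:104176954-104177023, plus strand: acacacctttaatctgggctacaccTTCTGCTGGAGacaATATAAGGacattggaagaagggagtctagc

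The first base of ATATAAGG lay 29 bases before the start in Zfp352, 28 in Sp110 and B020004J07Rik, and 31 in Gm21312. Over the 25 windows with the stretch on the gene strand the median was 31 bases. The range was -6 to 119 bases, where a negative value lies after the start. Sp110 and B020004J07Rik have a run of 61 identical bases in their windows, which 12 windows in all hold, and Sp110 and Gm21312 one of 100 bases, which 7 windows hold. Zfp352 is more distant, with a longest run of 15 bases shared with Sp110. Searched on both strands, TTCTGCTGGAGNNNATATAAGG was in 25 of 32851 windows (0.0761%), and the form with 1 more gap base, TTCTGCTGGAGNNNNATATAAGG, was in 1 window, that of Zfp352 (0.00304%). ATATAAGG alone was in 255 windows (0.776%). A match describes letters in a window and no bound factor.

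Genes with the stretch on the gene strand were set beside all genes of the table. Of the 24 genes with the stretch on that strand 18 were in the table, 3 of them in the set described here. Of the 18, 11 were at least 2-fold higher in late than in early 2-cell embryos and 0 lower, with a median of 1.81. In these 2 columns 12 of the 18 reached 1 FPKM, among them the 11 higher genes and Sp110, and 6 stayed under 1 FPKM. Without the 3 genes of the set it was 9 of 15, with a median of 1.40. Of all 24421 genes in the table, with no filter on low values, 25.1% were at least 2-fold higher and 5.73% lower. Among tested genes, which reached 1 FPKM in either column, the shares were 47.9% and 10.9%. Several of the 12 genes reached 1 FPKM in the late column only, so the count among the 12 is partly fixed by that filter. Many of the genes with the stretch are copies of each other (the row of Gm21312 and its neighbours on chromosome 10, Pramel genes on chromosome 4). They are not independent, and no test was made. Outside these families, Pemt, which makes phosphatidylcholine, was at 0.976 FPKM in 1-cell, 1.47 FPKM in early 2-cell and 63.5 FPKM in late 2-cell untreated embryos, and at 62.6 FPKM with TSA. Arih2, a ubiquitin ligase gene, was at 23.1 FPKM with TSA against 14.6 FPKM in untreated late 2-cell embryos. With TSA 2 of the 18 were at least 2-fold higher, Gm21312 with a difference of 1.07 and Gm8994 with 1.02, and 0 were lower. The shares over all genes in the table, without a filter, were 1.31% for higher and 2.13% for lower. Sp110 held the stretch and was highest in the 1-cell column. Its gene-level values do not show from which start that RNA came.

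**Figure D4:**
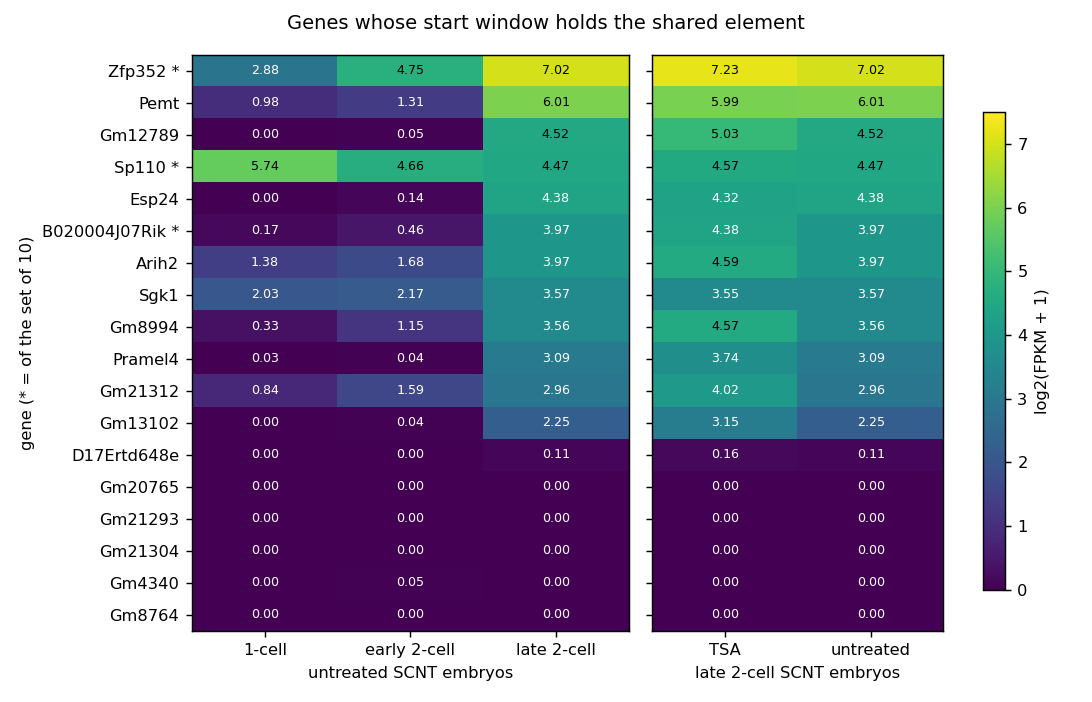
Expression in log2(FPKM + 1) of the 18 genes in the table whose start window holds the stretch on the gene strand, over the untreated stages (left) and in TSA-treated and untreated late 2-cell embryos (right), with stars on the 3 genes of the set. Rows run from the highest to the lowest untreated late 2-cell value: 11 of the 18 are at least 2-fold higher in late than in early 2-cell embryos, Sp110 is highest in the 1-cell column, and 6 stay under 1 FPKM.

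Zfp352 also holds TAATCC, the core bound by Bicoid-type homeodomains such as those of Otx factors, 9 times, all on the gene strand. No other of the 32851 windows has as many on both strands together, and 2320 windows (7.06%) have at least 1. Sp110 has 2 in one window and B020004J07Rik has 1. Bases 250 to 51 before the start of Zfp352 are given because the copies lie in a tandem repeat, with TAATCC in capitals.
Zfp352, chr4:90218570-90218769, plus strand: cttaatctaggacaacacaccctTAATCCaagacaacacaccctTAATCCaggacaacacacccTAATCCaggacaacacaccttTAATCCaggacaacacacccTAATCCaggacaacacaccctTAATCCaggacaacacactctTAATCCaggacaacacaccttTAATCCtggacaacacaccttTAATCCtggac
GATTNAATC, the core letters of the known Dux site, was in 88 windows (0.268%), among them that of B020004J07Rik and of none of the other 6 genes of the set with a window. That says only which windows hold these letters, and nothing about binding by Dux.

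The start windows also differed in base composition. Slc34a2 was the CpG-rich one, with 68.7% GC and an observed to expected CpG ratio of 0.862, and Lmx1a had 59.3% and 0.464, against medians of 52.7% and 0.384 over all windows. Zfp352 with 47.0% GC, B020004J07Rik with 45.0% and Ubtfl1 with 46.0% lay below the median, and the windows of Ubtfl1 and Spz1 held no CG. Slc34a2 and Ubtfl1 had late minus early differences of 4.64 and 3.94 and windows unlike in CpG content. Their last 70 bases before the start are shown for that reason, with each CG in capitals.
Slc34a2, chr5:53049283-53049352, plus strand: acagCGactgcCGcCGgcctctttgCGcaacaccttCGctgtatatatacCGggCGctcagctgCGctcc
Ubtfl1, chr9:18404348-18404417, plus strand: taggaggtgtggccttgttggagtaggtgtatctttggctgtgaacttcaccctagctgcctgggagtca

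The genes next to the set in the genome were examined for the same course. On each side, or overlapping, 22 distinct genes of the table were nearest. Of these, 9 were at least 2-fold higher in late than in early 2-cell embryos and 0 lower, with a median of 0.28, and 1 was at least 2-fold higher with TSA. Over all genes the share higher late was 47.9% of tested genes and 25.1% of the whole table, so the neighbours' count of 9 lies within that range. The share lower late was 10.9% of tested genes and 5.73% of the whole table. With TSA 2.51% of tested genes and 1.31% of the whole table were at least 2-fold higher. Gm11544, the nearest gene of the table on one side of Tmem92 on chromosome 11 (chr11:94777217-94782703), was at 0.0457 FPKM in 1-cell, 0.521 FPKM in early 2-cell and 65.9 FPKM in late 2-cell untreated embryos, and at 102 FPKM with TSA. On the other side of Tmem92, Gm11545 was at 99.7 FPKM in 1-cell, 112 FPKM in early 2-cell and 59.4 FPKM in late 2-cell embryos, and at 34.7 FPKM with TSA. It was thus lower in late than in early 2-cell embryos, where Tmem92 and Gm11544 were higher.

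Beside B020004J07Rik (chr4:101834969-101844022), Gm12794, which RefSeq names Pramel19, was at 18.3 FPKM with TSA against 8.51 FPKM in untreated late 2-cell embryos, a difference of 1.02. Gm12789, also within 150 kb, holds the shared stretch in its start window and was at 31.7 FPKM with TSA against 22.0 FPKM without. Beside Ubtfl1 (chr9:18404418-18411502), Naalad2 was at 4.13 FPKM in 1-cell, 2.20 FPKM in early 2-cell and 14.9 FPKM in late 2-cell embryos, while Mbd3l2 on the other side was at 81.4, 73.7 and 41.0 FPKM in the same stages. Around Sp110 (chr1:85570735-85610850), Sp140 and C130026I21Rik were high late. C130026I21Rik, 287852 bp away, was at 0.808 FPKM in 1-cell, 0.554 FPKM in early 2-cell and 29.2 FPKM in late 2-cell embryos. A630001G21Rik, within 150 kb of Sp110, was at 0.0866, 0.386 and 21.0 FPKM in the same stages. Sp100 stayed near 1 FPKM, at 1.04, 1.12 and 1.05 FPKM in the same stages. Zfp352 (chr4:90218820-90225687) is isolated, its nearest listed neighbours being 133938 bp away for Gm12633 and 524054 bp for Dmrta1. Dmrta1 was listed at 0 in both late 2-cell columns, and Gm12633 was at 38.6 FPKM in 1-cell, 9.60 FPKM in early 2-cell and 4.50 FPKM in late 2-cell embryos, so neither had the course of Zfp352.

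The other positions are chr11:121510976-121519342 for Zfp750, chr13:92574631-92576232 for Spz1, chr1:167688230-167848741 for Lmx1a and chr5:53049353-53071664 for Slc34a2, all GRCm38.p6. Sel1l3, beside Slc34a2, was at 1.82 FPKM with TSA against 3.48 FPKM in untreated late 2-cell embryos, opposite in direction to Slc34a2. Beside Lmx1a, Rxrg was at 0.0169 FPKM with TSA and listed at 0 in untreated late 2-cell embryos.

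Genes with the most similar values were sought for the 9 genes that reached 5 FPKM in a column, as the 3 smallest Euclidean distances in log2(FPKM + 1) over the 4 columns. The closest match was that of B020004J07Rik with Rad9a, a checkpoint clamp gene, at a distance of 0.13. Tmem92 was closest to Wdr81 at 0.17, then Tcirg1 and Clhc1. Spz1 was closest to Cdk6 at 0.19, then Caap1 and P4ha2, and Lmx1a to Cbx8, a Polycomb subunit gene, at 0.25, then Tcf3 and 4931409K22Rik. Values as close as these over 4 columns describe the level as much as the course.

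Ubtfl1 was closest to H2-DMa at 0.28, Psmb9 at 0.30 and C130074G19Rik, of which H2-DMa and Psmb9 are genes of antigen presentation and processing. H2-DMa was at 27.2 FPKM with TSA against 29.1 FPKM in untreated late 2-cell embryos, and Psmb9 at 22.7 FPKM against 26.2 FPKM. Slc34a2 was closest to Pramel7, a PRAME-like gene of the 2-cell families, at 0.42, with Impdh2 and 1600002K03Rik next. Pramel7 was at 108 FPKM with TSA against 60.8 FPKM without, beside 92.5 FPKM and 58.7 FPKM for Slc34a2.

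The nearest match was farthest away for Zfp352, the most abundant gene of the set at the late 2-cell stage. Zfp352 was closest to AK010878 at 0.64, Cdkn1a, the p53 target that encodes p21, at 0.72, and Dck at 0.76. Cdkn1a was at 125 FPKM with TSA against 167 FPKM in untreated late 2-cell embryos, lower with TSA where Zfp352 was not. Zfp750 was closest to Atp8a2 at 0.35, then Gm38425 and Cfap53, and Sp110 to Satb1, a chromatin organizer, at 0.27, then Naa16 and Foxn3. Nearness of values over 4 columns is a description and carries no statement on shared control.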

How the data were processed

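The deposited values are the authors' log2(FPKM + 1), as the file headers state (FPKM with 1 added, then log2). Per the submitters' processing notes, which name tools without their roles, the build was mm10, and Bowtie2 2.3.4.3, HISAT2 2.1.0, SAMtools 1.7, Cufflinks, StringTie 1.3.4 and deepTools 2.5.7 were used. How the libraries of a group were combined is not given in the sources used here. Of 6 columns, 4 were matched to groups, and the other 2, for which the labels list no RNA library, were left unused. The 1-cell column is named by 13 h, and its match is inferred from the collection hours. FPKM is relative to the column total, so a few abundant genes can move all others.

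A test with limma was planned for 1 column per library. With 1 column per group it could not be fitted, and differences of at least 1 (2-fold) were counted, among genes with at least 1 FPKM in a column of the comparison. Low values showed no clear whole-read steps: at best 24.2% to 26.2% of products with gene span lay within 0.1 of a whole number, against 20% with no steps, so depth is unknown. The counting was tested on simulated data. Genes named beside the 10 are those with the 3 smallest distances, the nearest neighbours, the highest and lowest of each gene list, and marker lists for cumulus and granulosa cells, blood and oocyte. Others, such as Gm21312 and the genes with the shared stretch, were chosen after their values were seen. The 10 genes and all lists were chosen with earlier results of these data known. Motifs were searched on both strands. Tools were Python 3.11.15, pandas 2.3.3, numpy 2.4.6 and matplotlib 3.10.9.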

Additional observations from a re-analysis of the deposited data

How the results depend on the processing

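Each difference of the 10 genes was recomputed with pseudocounts of 0.1 and 5, median-ratio scaling and quantile normalization, and 88 of 120 values moved by less than 1.5-fold while 32 moved further. The 88 include all values of Gm6763, which is listed at 0 in every column and could not move. The number of genes at least 2-fold higher with TSA was 0 with a pseudocount of 5. The median late minus early 2-cell difference was 1.43 with a pseudocount of 5 and after median-ratio scaling, and 1.44 after quantile normalization, and both scalings gave 2 genes at least 2-fold lower, since Sp110 joined Zfp750. Between early 2-cell and 1-cell embryos, 5 genes were higher and 2 lower with a pseudocount of 0.1, and 0 were lower with a pseudocount of 5 and after either scaling. Over all genes, the counts 2-fold higher and lower with TSA were 614 and 1074 with a pseudocount of 0.1, 89 and 92 with 5, and 179 and 280 with a 5 FPKM filter, and 233 were lower after median-ratio scaling and 319 after quantile normalization, against 320 and 520. For late against early embryos they were 3556 and 847 with a pseudocount of 5, 3758 and 3145 after median-ratio scaling, and 3419 and 3301 after quantile normalization, against 6128 and 1399. For early against 1-cell embryos they were 713 and 1152 with a pseudocount of 0.1 and 90 and 334 with 5, and 182 were higher with a 5 FPKM filter, against 376 and 720. Of the 2-fold calls there, 34.3% were higher as deposited, 46.5% after quantile normalization, 21.2% with a pseudocount of 5 and 23.6% with a 5 FPKM filter. The cause was not tested. Leaving out B020004J07Rik and Gm6763, an alternative chosen after seeing the data, moved no median or count of the set past 1.5-fold. Leaving out genes by protein identity was not run. No paired analysis was possible because each group has 1 column with no replicate number. Depth is unknown, so its limits cannot be given.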
